A study of Arabidopsis thaliana with 6 samples.

Results

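A set of 101 probe sets stood at least 2-fold higher in the flu mutant than in the wild type after 60 min of renewed light, and less than 2-fold higher after 30 min and after 2 h. They were taken from 13062 probe sets of the Affymetrix ATH1 array whose highest deposited signal over 6 arrays was 185 or more. The difference used throughout is log2((flu + 50)/(Ler + 50)), so that 1 stands for 2-fold, and the offset of 50 makes the differences of dim probe sets smaller. Members needed a difference of 1 or more at 60 min and of under 1 at 30 min and at 2 h. The members were thus chosen by the differences at all 3 times, which are given as a description, without a test. Each genotype and time had 1 array, so no replicate error can be given for any value.

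The 3 flu groups were rosette leaves of plants carrying the allele flu1-1 in the ecotype Landsberg erecta, taken after 30 min, 60 min and 2 h of light. The 3 reference groups were wild-type Landsberg erecta (Ler) leaves of the same times. All plants were 3 weeks old, had been raised on soil in continuous light without a night, and had spent 8 h in darkness before the light returned. Each array held pooled RNA from 2 experiments with 5 to 6 plants per sample and the values hold no spread between experiments. Fewer cells of a type and less RNA per cell cannot be told apart in such leaf samples. No array of leaves at the end of the dark period was analysed here, so a difference already present in the dark cannot be told apart from one that arose in the light.

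The FLU protein holds back the synthesis of chlorophyll precursors in darkness. Without it leaves accumulate protochlorophyllide at night, and this pigment passes light energy to oxygen when the light returns, which gives singlet oxygen inside the plastids. Signals leave the plastid and change the transcription of nuclear genes, and many such stress responses come in waves, with regulators and short-lived transcripts early and protective enzymes later. No probe set carried the name FLU in the tables used, so the mutated gene itself was not checked.

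The arrays were of one scale and of green leaf. The 2% trimmed mean of the signals was 500.0 on each array. Geometric means of the hybridisation controls were 532 to 975 on the flu arrays and 902 to 1217 on the Ler arrays, with the lowest on the flu array of 30 min. Of the leaf mesophyll list, 4 of 19 entries had a named probe set (RCA, PRK, LHCB4.1 and LHCB4.2) and their summed signal was 43866 to 50978 in flu and 60451 to 68526 in Ler. The root list had 2 probe sets of 14 entries (EXPA7 and EXPA18), neither past the filter, with sums of 106 to 156 in flu and 75.5 to 102 in Ler. None of the 19 flower and seed markers had a named probe set. The guard cell list (3 of 9 entries) summed to 300 to 486 in flu and 458 to 549 in Ler, that of trichome and epidermis (2 of 10) to 341 to 436 in flu and 708 to 1086 in Ler, and the single vascular gene, SWEET11, to 7716 to 10306 in flu and 8914 to 9753 in Ler. The part of these lists in the results was not tested.

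The members made up a small share of the genotype difference at 60 min. At that time 799 probe sets (6.12%) stood at least 2-fold higher in flu, and the members were 12.6% of them and 0.773% of all probe sets past the filter. Another 355 were also higher at 2 h, 42 also at 30 min and 301 at all 3 times. Probe sets higher at 30 min only numbered 38, of 2.98% higher at that time, and those higher at 2 h only numbered 657, of 10.1% higher then. In the opposite direction 76 probe sets were at least 2-fold lower in flu at 60 min only, so the single-time set at 60 min had 101 higher and 76 lower.

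**Figure D1:**
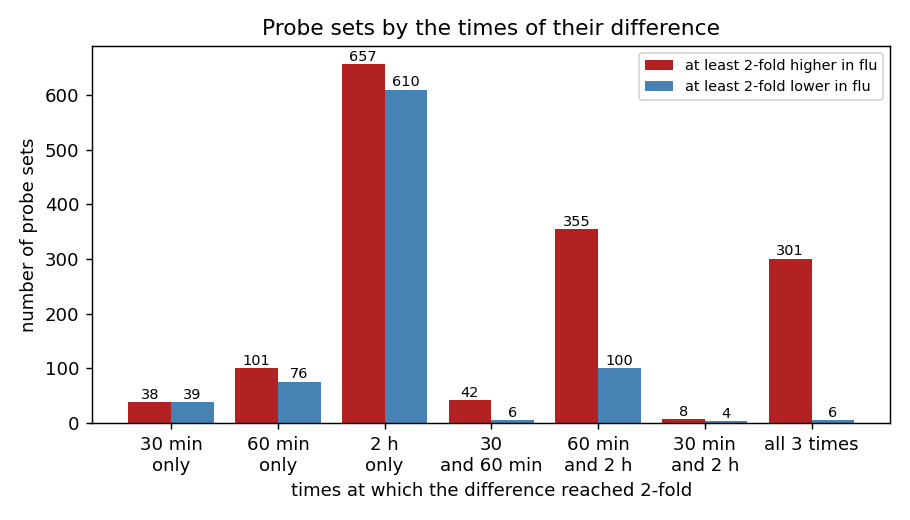
Numbers of probe sets (vertical axis) that differed at least 2-fold between flu and Ler, by the times at which they did so, for probe sets higher in flu (left bars) and lower in flu (right bars). The 101 members stand at 60 min only, next to 355 that were also higher at 2 h and 301 at all 3 times.

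Array-to-array differences within the wild type give a scale for these counts. Between the Ler arrays of 60 min and 30 min 160 probe sets (1.22%) were at least 2-fold apart, and between those of 2 h and 60 min 183 (1.40%). By direction, 95 were higher and 65 lower at 60 min than at 30 min. At 2 h 52 were higher and 131 lower than at 60 min. By the same single limit 799 were higher and 188 lower in flu than in Ler at 60 min. The 101 members also had to pass the limits at 30 min and 2 h, so their number is not a like count. The counts within Ler hold light responses and array noise together, which cannot be told apart with 1 array per group.

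Most members were not far above the limit at 60 min. Their median difference was 1.17, with 1.00 as the lowest and 2.20 as the highest, against -0.08 over all probe sets past the filter. A difference under 1.2 was found in 58 members, 1.5 or more in 14 and 2 or more in 1. At the other times their median was 0.48 at 30 min and 0.58 at 2 h, against -0.04 and -0.20 over all probe sets past the filter. A difference of at least 1.5-fold was found at 30 min in 37 members (6.68% of all probe sets past the filter), at 2 h in 50 (15.7%) and at both times in 16 (4.34%). In 30 members (82.0% of all) flu was under 1.5-fold higher at both flanking times, and in 74 (15.3%) the difference was positive at all 3 times. Requiring a difference at 60 min bears on all of these counts, and nothing is read from them beyond the count. The word "only" in the rule thus refers to the 2-fold limit.

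**Figure D2:**
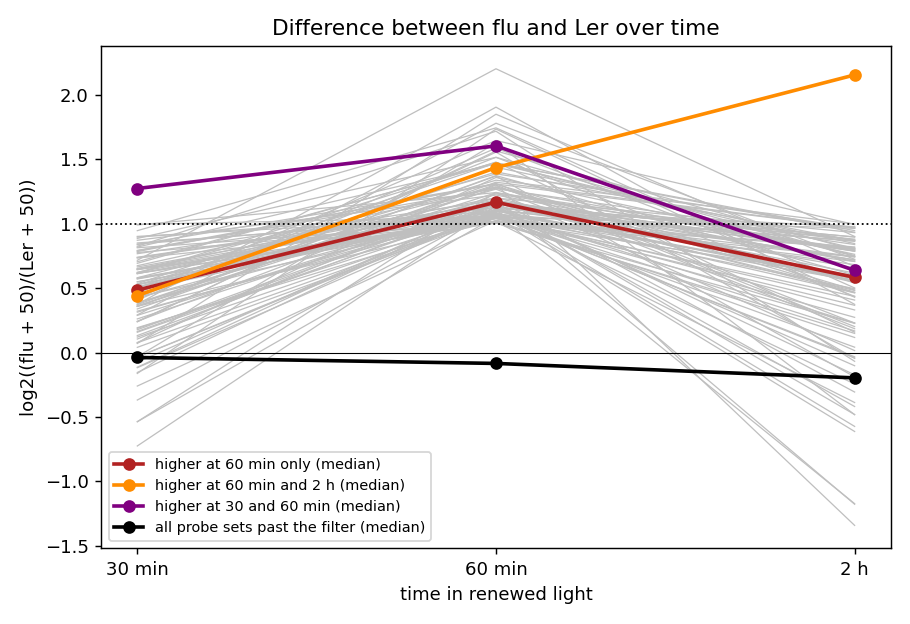
Difference between flu and Ler on the log2 scale (vertical axis) after 30 min, 60 min and 2 h of light. Thin lines are the 101 members, thick lines medians of the members, of the probe sets higher at 60 min and 2 h, of those higher at 30 and 60 min, and of all probe sets past the filter. The dotted line is the 2-fold limit. The members' medians are 0.48, 1.17 and 0.58.

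The excess at 60 min, that is the difference at 60 min minus the higher of the other differences, describes how far a member stood out. Its median was 0.53 and its range 0.06 to 1.66, against a median of -0.20 over all probe sets past the filter. An excess of 1 or more was found in 15 members, and one under 0.25 in 13. The probe sets that were also higher at 2 h had a median excess of -0.65, since 2 h was their higher time, and those also higher at 30 min had 0.21. These values follow from the rule and are given to show its width.

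The members nearest the limits were close to probe sets left out. At 60 min AT1G51270 (1.003) and UGT73B1 (1.006) were just inside, and AT2G17850 (0.999) and AT3G24100 (0.989) just outside. At 30 min the unnamed probe set 251705_at (0.994) and AT1G74450 (0.990) were just inside, with 263584_at (1.01) and AT1G24530 (1.02) just outside. At 2 h the unnamed 267104_at (0.997) and AT5G03380 (0.993) were just inside, and 267392_at and SUFE2 (both 1.03) just outside. By brightest signal AT5G42330 (190.2) was the dimmest member, while AT5G35370 (183.8) and SHB1 (181.1) met the limits on the differences with too little signal.

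The difference at 60 min can lie in a high flu array, in a low Ler array or in both. In 81 members the flu array of 60 min was the highest of the 3 flu arrays, against 24.7% of all probe sets past the filter. In 73 members the Ler array of 60 min was the lowest of the 3 Ler arrays, against 30.8%. Both held for 53 members (8.56% of all) and neither for 0 (53.1% of all). The high flu array alone was found in 28 and the low Ler array alone in 20, and their shares over all probe sets were not counted. Selection on the difference at 60 min favours high flu and low Ler values of that time, so nothing is read from these shares beyond the count.

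The changes within each genotype, which the rule also shapes, were as follows. In flu the median change of the members was 0.46 from 30 to 60 min and -0.48 from 60 min to 2 h, against -0.07 and -0.11 over all probe sets past the filter. In Ler it was -0.34 and 0.21, against -0.03 and 0.00. At 60 min 37 members were at least 1.5-fold above their flu level of 30 min (7.44% of all), and 41 were at least 1.5-fold lower in flu at 2 h than at 60 min (9.23%). In Ler 28 members were at least 1.5-fold lower at 60 min than at 30 min (4.14%) and 1 was higher (4.06%), and 20 were at least 1.5-fold higher at 2 h than at 60 min (3.41%). Put against the mean of the flanking times of the same genotype, the level at 60 min was a median 0.49 higher in flu and 0.29 lower in Ler. Over all probe sets past the filter the medians were 0.01 in flu and -0.01 in Ler. The Ler departure was larger than the flu departure in 33 members, and its share over all probe sets was not counted. The like sets differed in this respect, with medians of the Ler departure of 0.03 in the probe sets also higher at 2 h and -0.03 in those also higher at 30 min, but the difference between these sets has no test.

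The members were therefore also set against the wild type of the other times. For this the mean of the Ler arrays of 30 min and 2 h took the place of the Ler array of 60 min. Then 43 of the 101 kept a 2-fold difference, and the median difference was 0.94, against -0.11 over all probe sets past the filter. The share of all probe sets with such a 2-fold difference was not counted, and their upper quartile was 0.14. The rule used the flu array of 60 min, so nothing is read from the 43 beyond the count. The rule applied in that way found 71 probe sets, 43 of them members. The ratio of 3′ to 5′ signal of an actin control, a measure of RNA integrity and labelling, was 4.62 on the flu array of 60 min and 7.05 on the Ler array of 60 min, against 5.83 and 6.08 on the other flu arrays and 3.38 and 5.79 on the other Ler arrays. A second actin control gave 1.31 on the flu array of 60 min and 1.99 on the Ler array of 60 min, and GAPDH 0.914 and 0.988. At 30 min and 2 h the second actin control gave 2.08 and 1.68 in flu and 1.43 and 2.03 in Ler. GAPDH gave 0.845 and 0.806 in flu and 0.977 and 0.874 in Ler at these times. The part of RNA integrity in these members was not tested.

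**Figure D3:**
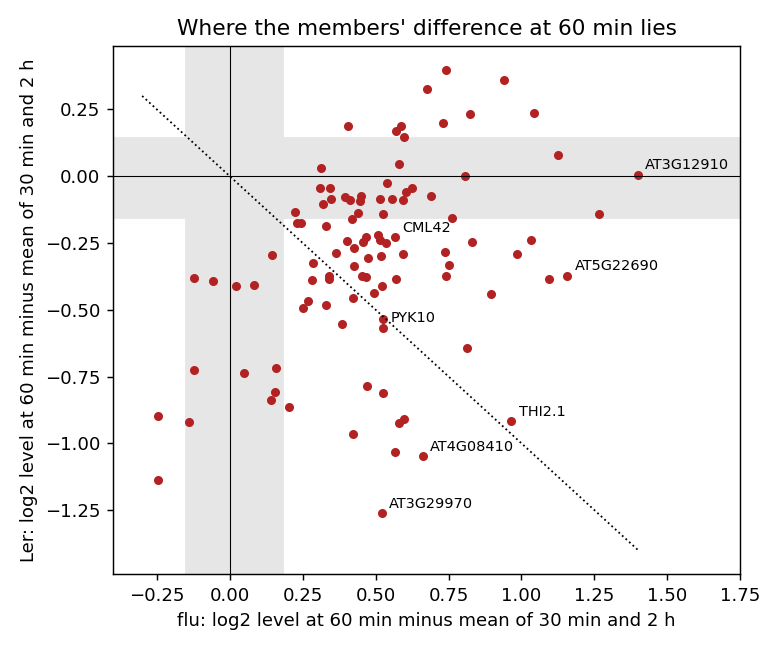
For each of the 101 members, the log2 level at 60 min minus the mean of 30 min and 2 h in flu (horizontal axis) and in Ler (vertical axis). Grey bands run from the lower to the upper quartile of all probe sets past the filter, and on the dotted line both departures are of equal size. The lower the point, the further Ler at 60 min lay below its flanking times, as for AT3G29970 and AT4G08410. AT3G12910 lies on the line of no Ler departure.

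Names were available for part of the set. A single gene was given for 56 members, several genes for 4 and none for 41. Of the 56 genes, 49 are known in the tables used only by their locus tag, for which no function is given here, and 7 have a symbol. The named members lay on all 5 nuclear chromosomes (18, 8, 10, 10 and 10 from chromosome 1 to 5), and no 2 of them were within 10 protein-coding genes of each other in the RefSeq order. Named and unnamed members had like differences at 60 min, with medians of 1.18 and 1.15.

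Signals and differences of a gene are listed by increasing time in the light. Where flu signals are said to lie above all Ler signals, or not to overlap them, the arrays are of different times and not replicates. Selection on the difference at 60 min favours such a separation, and its share over all probe sets was not counted. Among the 7 members with a symbol, 3 have known roles in defence. THI2.1 encodes a thionin, a small antimicrobial peptide whose gene is known to respond to jasmonate and pathogens. It read 139, 294 and 115 in flu leaves and 143, 61.6 and 180.4 in Ler leaves. The flu array was the higher one at 60 min alone, and the differences were -0.03, 1.63 and -0.48. THI2.1 had the largest excess of all members, 1.66, but its flu and Ler departures at 60 min were of almost equal size (0.97 and -0.92). Against the mean of the other Ler arrays the difference was 0.71. The related gene THI2.2 stayed at 15.5 to 21.3 in flu and 19.1 to 26.5 in Ler, below the filter.

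PYK10 encodes a beta-glucosidase stored in ER bodies, compartments of the endoplasmic reticulum that serve defence against herbivores and microbes. Its signals were 347, 481 and 293 in flu, against 209, 141 and 257 in Ler. All 3 flu signals were above all 3 Ler signals, so the groups did not overlap, with differences of 0.61, 1.48 and 0.16. Here too the Ler array of 60 min was the lowest of the Ler arrays, and against the mean of the other Ler arrays the difference was 0.91. Among other beta-glucosidase genes named BGLU, BGLU15 came nearest at 60 min (0.91, with 0.54 at 30 min and 0.08 at 2 h), BGLU46 had 0.82 at 60 min and 1.32 at 2 h, and BGLU25 was lower in flu (-1.01 at 60 min). ATA27, another beta-glucosidase gene, had 0.08 at 60 min and 2.27 at 2 h. BGLU46 and ATA27 passed the filter only through the flu array of 2 h, which favours a large difference at that time. This family was looked up after the member had been seen.

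CML42 encodes a calmodulin-like calcium sensor, known from trichome branching and from the response to insect feeding. Its signals were 791, 1405 and 1097 in flu, against 571, 487 and 588 in Ler. Every flu signal was above every Ler signal, with the highest flu level at 60 min, and the differences were 0.44, 1.44 and 0.85. Against the mean of the other Ler arrays the difference at 60 min was 1.21. CML42 is thus a member whose level in flu was highest at 60 min and whose Ler signals lay close together. The summed signal of the trichome list (GIS and TRY) was lower in flu throughout, as given above, and its part in the values of CML42 was not tested.

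The calcium list held 11 tested probe sets. Of these, 3 were at least 2-fold higher in flu at 30 min, 4 at 60 min and 4 at 2 h (backgrounds of 2.98%, 6.12% and 10.1%). At any time 0 were at least 2-fold lower (backgrounds of 0.421%, 1.44% and 5.51%). The list's median was 0.10, 0.54 and 0.09. CML37 and CML38 were far higher throughout, with 3.28, 3.47 and 5.21 for CML37 and 3.20, 3.15 and 4.43 for CML38, and CML23 was higher throughout by 1.34, 1.89 and 1.67. CML41, next to CML42 in name, also had its largest difference at 60 min (0.10, 0.63 and 0.09), without the difference that CML42 had at 2 h. It read 1344, 1160.5 and 1506 in flu and 1252, 731 and 1417 in Ler. There the Ler array of 60 min was low and the flu array was not high. CML43 was under the filter, with differences of -0.39, 1.30 and 0.86. CML42 was the 1 member of this list.

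For jasmonate, to which THI2.1 responds, only 3 of the 32 entries of the list had a named probe set, and these 3 were tested. ORA47, an AP2-domain regulator of jasmonate synthesis, had differences of 0.95, 3.06 and 1.84. OPCL1, which activates jasmonate precursors, had 1.74, 2.59 and 3.41, and JMT, which methylates jasmonate, had -0.10, -0.06 and 1.99. None of these 3 is a member, since each was at least 2-fold higher at 2 h (10.1% of all probe sets past the filter). ORA47 had its largest difference at 60 min, and OPCL1 and JMT had theirs at 2 h. For THI2.1 a largest difference at 60 min follows from the rule, and a link between these genes was not tested.

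Of the members in metabolism and the cell wall, CSLC04 is the brightest named one. It encodes a glucan synthase that makes the backbone of xyloglucan, a major wall polysaccharide. Its signals were 3032, 2379.5 and 953 in flu, against 1804, 1152 and 1262 in Ler. Flu was above Ler at 30 and 60 min and below it at 2 h, with differences of 0.73, 1.02 and -0.39. The flu level was thus not highest at 60 min, and the difference at 60 min was 0.64 against the mean of the other Ler arrays and 0.99 with an offset of 100. Related genes past the filter were under 2-fold higher in flu at each time. CSLC5 had -0.15, -0.44 and -0.91, CSLC6 0.03, -0.03 and -0.41, and ATCSLC08 0.26, -0.60 and -1.87.

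In the cell wall list of 39 tested probe sets, 2 were at least 2-fold higher at 30 min, 3 at 60 min and 5 at 2 h, and 0, 1 and 10 were lower. Of all probe sets past the filter, 2.98%, 6.12% and 10.1% were higher at the 3 times, and 0.421%, 1.44% and 5.51% lower. The list's median was 0.03, -0.11 and -0.47. XTH18, a xyloglucan-modifying enzyme gene, led with 2.69, 4.07 and 4.54, and the pectin methylesterase gene ATPMEPCRB had 2.67, 2.62 and 1.10. CSLC04 was the third of those higher at 60 min and the 1 member.

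UGT73B1, of the glycosyltransferases that attach sugar to small molecules such as flavonoids, was among the dimmest members. Its signals were 124, 193 and 132 in flu, against 49.1, 71.1 and 114 in Ler. The lowest flu signal was above the highest Ler signal, and the differences were 0.81, 1.01 and 0.15. Unlike the members above, its Ler signals increased over the 3 times, so the smaller difference at 2 h came with a higher Ler level. With an offset of 100 its difference at 60 min was 0.78, and with 16 it was 1.26. It was also under the limit with quantile normalization (0.90), with centring (0.99) and against the mean of the other Ler arrays (0.93).

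Of 24 tested glycosyltransferases, 1 was at least 2-fold higher in flu at 30 min, 3 at 60 min and 9 at 2 h (2.98%, 6.12% and 10.1% of all), and 0, 2 and 1 were lower (0.421%, 1.44% and 5.51%). The list's median was -0.07, 0.13 and 0.53. The 4 other UGT73 genes past the filter each had their largest difference at 2 h. UGT73B4, UGT73C1 and UGT73D1 passed the filter only through the flu array of 2 h, which favours a large difference at that time. UGT73B5 had differences of -0.20, 2.27 and 4.75, UGT73B4 -0.40, 0.04 and 2.37, UGT73C1 -0.55, 0.24 and 2.32, and UGT73D1 0.20, 0.19 and 1.29. Below the filter UGT73C2 had 0.02, 0.34 and -0.43 and UGT73C7 -0.44, -0.08 and 0.39. Among the 5 past the filter, UGT73B1 had the largest difference at 30 min. Its difference at 2 h was held under 1 by the rule, so nothing is read from its being the smallest then.

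The other members with a symbol are pEARLI4 and HHP2. HHP2 and AT1G10050 are described for their names and were chosen after their values were seen. The name of pEARLI4 comes from a screen for transcripts induced early by aluminium. Its signals were 1129, 1495 and 929 in flu, against 631, 575 and 649 in Ler. The groups did not overlap, and the differences were 0.79, 1.31 and 0.49, with 1.16 at 60 min against the mean of the other Ler arrays. HHP2 encodes a membrane protein with 7 predicted spans, a family related to animal adiponectin receptors. Its signals were 430.1, 352 and 348 in flu, against 230.3, 148 and 188 in Ler. Flu was higher at each time without overlap, and the differences of 0.78, 1.02 and 0.74 were nearly even. At 60 min the difference was under the limit with an offset of 100 (0.86), with quantile normalization (0.97) and against the mean of the other Ler arrays (0.64). The flu level of HHP2 was highest at 30 min, and 60 min stands out through the lowest Ler signal. AT1G10050, with the synonym ATXYN2 (a xylanase name), had 258, 339 and 300 in flu, against 161, 136 and 159 in Ler, with differences of 0.55, 1.06 and 0.74.

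**Figure D4:**
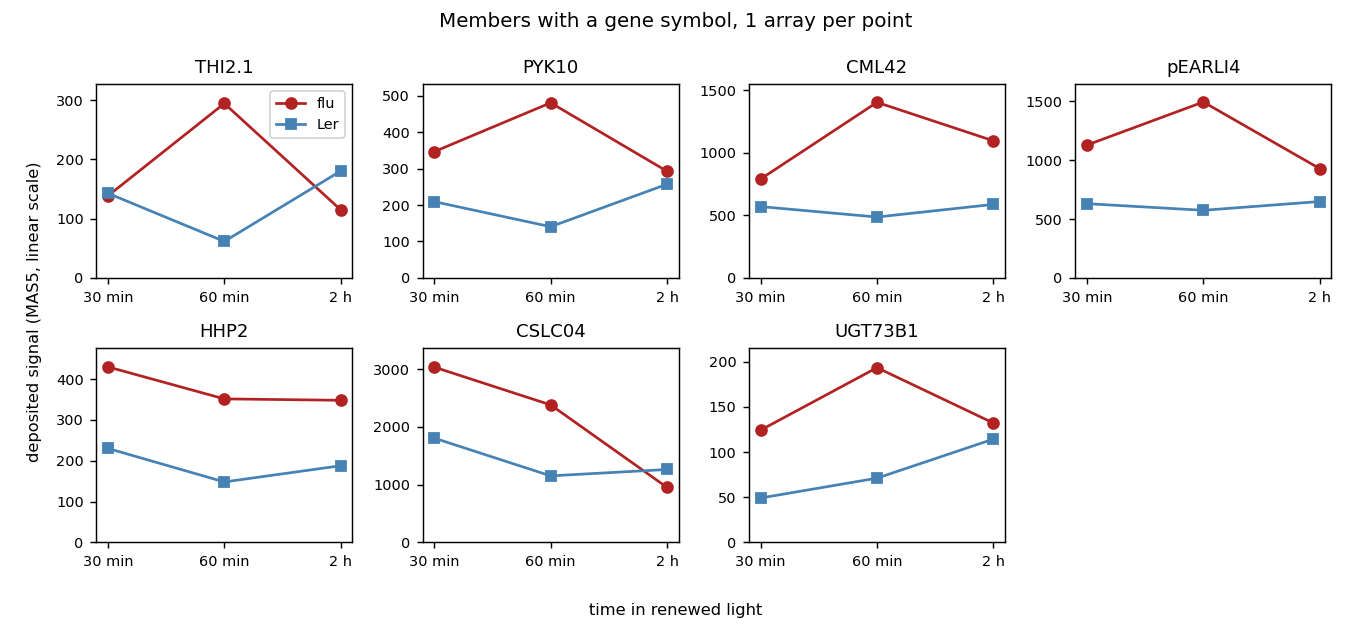
Deposited signals on a linear scale (vertical axes, each from 0) of the 7 members with a gene symbol in flu (circles) and Ler (squares) after 30 min, 60 min and 2 h of light, with 1 array per point. The flu signal is highest at 60 min in 5 of them, and in HHP2 and CSLC04 it is highest at 30 min.

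Among members known by locus tag, AT3G12910 had the largest difference at 60 min. Its signals were 39.5, 228 and 73.8 in flu, against 4.5, 10.3 and 16.3 in Ler. The Ler signals are near background, and the differences of 0.72, 2.20 and 0.90 depend on the offset, with 3.21 at 60 min for an offset of 16 and 1.57 for one of 100. At that larger offset AT4G36550 (1.63) and AT5G22690 (1.61) stood above it. For AT3G12910 the flu array of 60 min was far above the other 5 arrays, and it passed the filter through that array alone. AT5G22690 had 255, 516 and 161 in flu, against 185, 101 and 113 in Ler. Its differences were 0.37, 1.90 and 0.37, an excess of 1.53, and 1.53 also at 60 min against the mean of the other Ler arrays.

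AT4G36550 had 982, 1314 and 599 in flu, against 486, 357 and 409 in Ler, so that all flu signals were above all Ler signals. The differences were 0.95, 1.74 and 0.50, which places it close to the set that was also higher at 30 min. AT5G38210 had 189, 354 and 148 in flu, against 84.7, 73.0 and 157 in Ler. Its differences were 0.82, 1.72 and -0.07, the last with a Ler signal above the flu signal. AT5G03380 leaned to the later time, with 727, 1549 and 1094 in flu against 516, 461 and 525 in Ler, and differences of 0.46, 1.65 and 0.99.

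AT2G47880, AT1G67310 and AT5G62770 each had an excess of 1 or more. AT2G47880 had 479, 775 and 411 in flu, against 349, 225 and 268 in Ler, and differences of 0.41, 1.59 and 0.54. AT1G67310 had 539, 884 and 473 in flu, against 388, 277 and 337 in Ler, and differences of 0.43, 1.52 and 0.44. AT5G62770 had 243, 409 and 183 in flu, against 198, 106 and 189.9 in Ler, and differences of 0.24, 1.55 and -0.05. Flu was highest and Ler lowest at 60 min in each of the 3. Against the mean of the other Ler arrays the differences were 1.21, 1.18 and 0.91.

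AT2G21120 and AT5G04550 are among the brighter members of this group and stood higher in flu at each time, which does not hold for every bright member. AT2G21120 had 1728, 2327 and 1507 in flu, against 1050.4, 805 and 878 in Ler, without overlap, and differences of 0.69, 1.47 and 0.75. AT5G04550 had 1202, 1618 and 1146 in flu, against 769.7, 699 and 730.1 in Ler, also without overlap, and differences of 0.61, 1.16 and 0.62. For both the flanking differences were alike, so their pattern is a raised level throughout with more at 60 min.

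**Figure D5:**
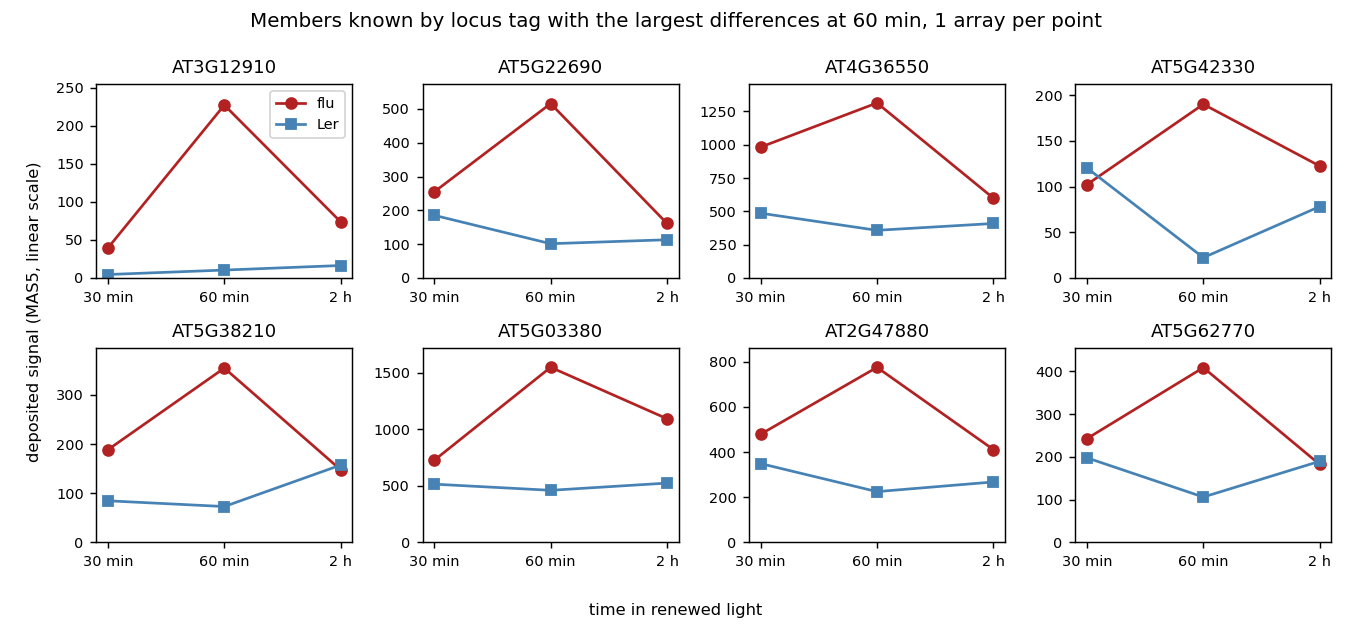
Deposited signals on a linear scale (vertical axes, each from 0) of the 8 members known by locus tag with the largest differences at 60 min, in flu (circles) and Ler (squares), with 1 array per point. In all 8 the flu signal is highest at 60 min, and in all but AT3G12910 the Ler signal is lowest then.

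In several members with a large excess the Ler array of 60 min carried most of it. AT4G08410 had 232, 365 and 195 in flu, against 415, 139 and 277 in Ler, with differences of -0.72, 1.14 and -0.42. Against the mean of the other Ler arrays its difference at 60 min was 0.09. The name of its probe set marks it as one that can bind other transcripts, and a further probe set for this gene and AT4G08400, below the filter, had 0.09, 0.07 and -1.02, so that the probe sets disagree. AT5G42330 had 102, 190.2 and 123 in flu, against 120.4, 22.2 and 78.2 in Ler, and differences of -0.16, 1.73 and 0.43, the middle one 0.70 against the mean of the other Ler arrays. AT4G25940 had 113, 219.7 and 149 in flu, against 187, 64.0 and 147 in Ler, with differences of -0.54, 1.24 and 0.02. AT3G07860 had 131, 215 and 151 in flu, against 110.2, 66.1 and 199 in Ler, with differences of 0.18, 1.19 and -0.31. In these 2 the difference against the mean of the other Ler arrays was 0.32 and 0.40.

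In 14 members the flu signal at 60 min was below that at 30 min (58.5% of all probe sets past the filter). AT1G30820 had 844, 591 and 594 in flu, against 648, 197 and 375 in Ler, with differences of 0.36, 1.37 and 0.60. AT3G47160 had 931, 602 and 475 in flu, against 715, 271 and 434 in Ler, with differences of 0.36, 1.02 and 0.12. AT5G19120 had 711, 575 and 670.3 in flu, against 382, 176 and 361 in Ler, with differences of 0.82, 1.47 and 0.81. In these genes both genotypes were lower at 60 min than at 30 min, and Ler by more. They were picked after their values had been seen, and against the mean of the other Ler arrays they stood at 0.23, 0.10 and 0.57.

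The reverse case, a high flu array over steady or higher Ler arrays, was found in AT5G40540, AT3G26910, AT1G74450 and AT1G22510, also picked after their values had been seen. AT5G40540 had 158, 374 and 184 in flu, against 118, 146 and 89.6 in Ler, with differences of 0.31, 1.11 and 0.74. AT3G26910 had 231, 429 and 247 in flu, against 139, 173 and 149.6 in Ler, with 0.57, 1.10 and 0.57. For AT1G74450 the signals were 749.8, 1136 and 637 in flu, against 353, 452 and 349 in Ler, with 0.99, 1.24 and 0.79. AT1G22510 had 434, 803 and 608 in flu, against 291, 335 and 304 in Ler, with 0.51, 1.15 and 0.90. In these 4 both genotypes were highest at 60 min, flu by more, and against the mean of the other Ler arrays the differences were 1.47, 1.30, 1.57 and 1.30, larger than with the Ler array of 60 min.

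At 2 h 18 members had a negative difference (64.6% of all), and in 3 it was at least 2-fold (5.51% of all). AT3G29970 had 269, 202 and 46.9 in flu, against 195, 52.3 and 196 in Ler, and differences of 0.38, 1.30 and -1.34. The Ler array of 60 min was low by nearly the amount of the difference, which was 0.04 against the mean of the other Ler arrays. The other 2 were the unnamed 260869_at (0.32, 1.08 and -1.17) and 267053_s_at, which stands for several genes (0.77, 1.18 and -1.18). At 30 min 13 members had a negative difference (55.0%), and in 0 was it at least 2-fold.

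Among unnamed members the difference at 60 min ran from 1.04 to 1.85 and the highest signal from 204.7 to 11160.4, against 1.00 to 2.20 and 190.2 to 3032 in members with 1 gene. The largest difference among them at 60 min was that of 246622_at (1.85), which read 395, 1135 and 643 in flu and 373, 279 and 386 in Ler. Next came 247455_at (1.78), which read 331, 606 and 219.8 in flu and 262, 141 and 113 in Ler. In both the flu array of 60 min was the highest of all 6. The brightest member of all, 267104_at, was also unnamed and read 7589, 11160.4 and 8901 in flu and 5258, 4387 and 4434 in Ler, and differences of 0.53, 1.34 and 0.997. Signals of 1000 or more were reached by 26 members and under 300 by 19. The median of the highest signal was 645 in the members and 695 over all probe sets past the filter.

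Other probe sets of the same genes give a second reading from the same RNA. Only 3 of the named genes had one. For AT1G51270 it was past the filter, with 247, 278 and 213 in flu against 274, 145 and 176 in Ler. Its differences were -0.12, 0.75 and 0.22, against 0.65, 1.00 and 0.23 in the member. Both were largest at 60 min, but the second did not reach 2-fold and had the opposite sign at 30 min. For AT1G77890, with 0.42, 1.18 and 0.72 in the member, it was below the filter and had -0.11, 0.43 and -0.23. The third is that of AT4G08410 above. The second probe set thus reached 2-fold at 60 min in 0 of 3 genes (6.12% of all probe sets past the filter). Those of AT1G77890 and AT4G08410 were below the filter, and the offset makes the differences of such dim probe sets smaller.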

How the data were processed

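Leaf RNA of 2 genotypes at 3 times was measured on 6 ATH1 arrays. The deposited values are MAS5 signals, linear intensity values with 1 per probe set. Per the submitters' processing notes MAS5 was used, and its version is not given in the sources used here. Genotype and time came from the titles. Of 22810 probe sets 64 controls were left out. Gene names came from the platform annotation, where 13513 probe sets have 1 gene, 503 several and 8794 none, and symbols from a RefSeq table of assembly TAIR10.1, matched by 13436 of the former including all 56 members with 1 gene. No sequences were used here.

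Differences were computed from the deposited signals without further scaling, in numpy 2.4.6 and pandas 2.3.3 under Python 3.11.15. Plots were made in matplotlib 3.10.9. No test was made, because the rule used the differences and each group had 1 array. Alternatives were offsets of 16 and 100, quantile normalization, centring of each array on its median, other filters and other limits. After the values had been seen, the mean of the Ler arrays of 30 min and 2 h in place of that of 60 min was added, as was dropping the limit at 30 min or at 2 h.

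The members, the 39 gene lists and the rule for named genes were chosen with earlier results of these data known. The rule took members with 1 gene: the 12 with the largest difference at 60 min, the 12 with the largest excess, the 6 brightest on the flu array of 60 min, up to 4 per gene list, and the 2 nearest each limit on either side. Further genes are said in the text to have been chosen after their values were seen. A search of promoters for motifs was planned and not run, since no promoter sequence was used here.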

Additional observations from a re-analysis of the deposited data

Results flagged for a closer look

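Opposite signs of the difference between flu and Ler at 60 min and at another time drew attention to several members. With 1 array per genotype and time this change of sign was not tested. Beside a difference of at least 1 at 60 min, the difference at 2 h was -1.34 in AT3G29970, -1.18 in 267053_s_at and -1.17 in 260869_at, so that these 3 were 2-fold higher and later 2-fold lower in flu. Of the 18 members negative at 2 h and the 13 negative at 30 min, the values below are those of the genes named by rule. At 2 h they were those of THI2.1 (-0.48), CSLC04 (-0.39), AT3G07860 (-0.31), AT5G38210 (-0.068) and AT5G62770 (-0.045). At 30 min the difference was -0.54 in AT4G25940, -0.16 in AT5G42330 and -0.032 in THI2.1. AT4G08410 was negative at both times, with -0.72 at 30 min and -0.42 at 2 h. The values of -0.16, -0.068, -0.045 and -0.032 are smaller in size than the median absolute difference between neighbouring Ler arrays, 0.19.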

How the results depend on the processing

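The number of members depended on the limits more than on the scaling. Of the 101, the offset of 16 kept 85 among 130, the offset of 100 kept 57 among 82, quantile normalization kept 81 among 82 and centring kept 97 among 103. Under all of these 4 settings 48 stayed members, and 27 of them also with the mean of the Ler arrays of 30 min and 2 h, AT5G22690, AT4G36550, AT2G47880, AT1G67310, AT2G21120, CML42, pEARLI4 and AT5G04550 among them. Without a filter the rule found 237, with a filter at the 75th percentile 55, with a limit of 1.5 at 60 min 14, with a limit of 1.5-fold at the flanks 30, and without the limit at 2 h 456, against 143 without the limit at 30 min. The causes were not tested beyond the construction of these limits. The median difference of the members at 60 min was 0.94 with the mean of the Ler arrays of 30 min and 2 h. The counts of probe sets higher in flu at each time stayed within 1.5 times under the other offsets, scalings and filters, and the other medians moved by less than 0.19, the median absolute difference between neighbouring Ler arrays. Of 110 values of single genes at 60 min under other settings, 38 moved by more than that and 0 turned sign. No paired analysis was possible because the members are defined by comparisons of 1 array with 1 array at each time, and the labels carry no replicate numbers. What limits the precision is 1 array per group, with pooled RNA, and dim signals, since 20 members had a Ler signal under 100 at 60 min.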
